A study of Mus musculus with 8 samples.

Results

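The regions described here carried an H3K4me1 peak in cells with the fusion factor NanogBiD, none in cells with wild-type NANOG, and no peak of any other target. Overlapping or touching H3K4me1 peaks of both arms were merged, and a region was kept when it held a NanogBiD peak, no NanogWT peak and no overlap of 1 bp or more with a FLAG, BRG1 or H3K27ac peak of either arm. This gave 5101 members among 86573 merged H3K4me1 regions. CUT&Tag, in which an antibody steers a transposase to its target, had been run on mouse embryonic fibroblasts 5 days after retroviral delivery of Oct4 with either Nanog (NanogWT, labelled Nanog+Oct4) or NanogBiD (labelled NanogN70+Oct4), in which the part of SS18 that binds BRG1 is fused to NANOG. The methods give the fibroblasts as Oct4-GFP reporter cells from embryos of either sex, kept in a reprogramming medium. Antibodies were against the FLAG tag on NANOG, BRG1 (the motor subunit of BAF, a complex that remodels nucleosomes), H3K27ac and H3K4me1, and each of the 8 groups had 1 library of merged replicates. The design therefore allowed no test between arms, and every 95% interval below covers counting error only, over regions that are not replicates. In a bulk population, fewer cells with the mark and less mark per cell cannot be told apart, and a peak list holds no expression with which the labelled cell type could be checked.

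H3K4me1, a single methyl group on lysine 4 of histone H3, is written mainly by KMT2C and KMT2D. It marks enhancers and the flanks of active promoters, and it can stand before an enhancer is active, while H3K27ac is added at active enhancers and promoters. Regions with H3K4me1 alone are therefore usually described as primed or poised, but absence of a peak here means only that none was called.

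The members were selected on the presence and absence of peaks in these libraries, so their NanogBiD H3K4me1 values are a description. Each member held 1 NanogBiD peak. The median summit height, the tag pileup at the summit as deposited without scaling to depth, was 11 tags, with quartiles of 10 and 13 and a range of 8 to 23. Peak scores, the significance values of the peak caller, had a median of 60.9 and ran from the lowest value in the lists, 50, to 254. A score of 100 was reached by 224 members, 4.39%, and 150 by 8. Members were 622 bp wide at the median and covered 3.48 Mb in all. Median heights were 13 tags in the mirror class, H3K4me1-only regions lost in NanogBiD cells, 13 tags in H3K4me1-only regions common to both arms and 12 tags in gained regions with another target. Among members 10.4% (9.58 to 11.3) reached 15 tags, against 25.5% (24.9 to 26.3) of the lost H3K4me1-only regions.

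**Figure D1:**
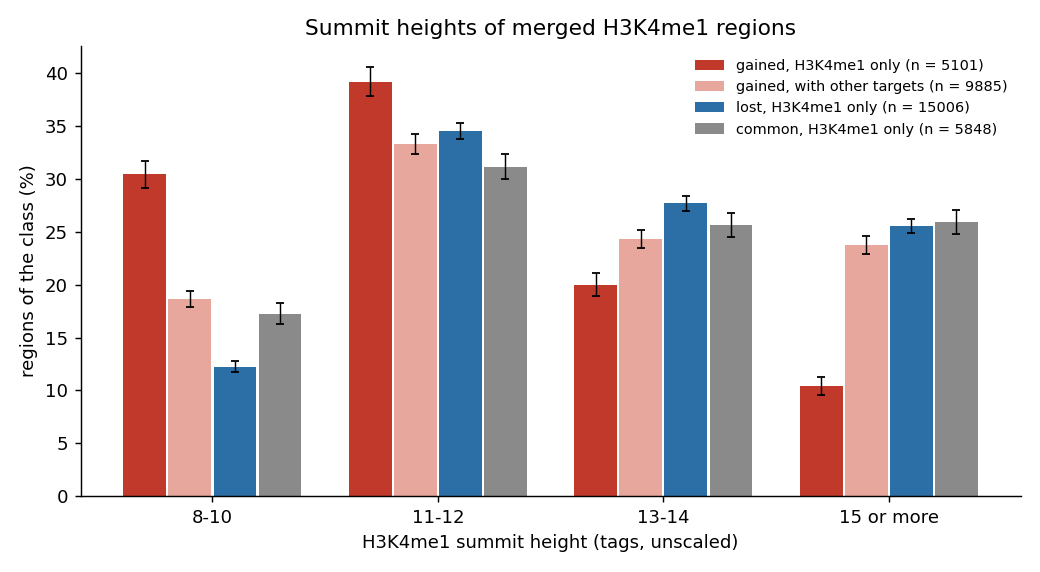
Share of regions (vertical axis, %) by H3K4me1 summit height (horizontal axis, tags, unscaled) in 4 classes of merged regions, with Wilson 95% intervals that cover counting error only. The gained H3K4me1-only regions lie mostly at 8 to 12 tags, and 10.4% of them reach 15 tags.

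The members with the highest scores are given with their sequence, since they are the best separated from the local background. They lay in an intron of Pamr1, a secreted peptidase-domain protein (chr2:102598900-102600334, mm10, 13 tags, score 254), between genes 72.0 kb from the nearest protein-coding start site, that of Rab11fip2 (chr19:60015301-60016481, 15 tags, score 171), at the promoter of the potassium channel gene Kcnh7 (chr2:63183509-63184378, 14 tags, score 170), between genes 7.99 kb from the start of Hdhd5 (chr6:120539053-120539864, 17 tags, score 166) and in an intron of the non-coding gene model Gm26848 (chr17:6489845-6490376, 20 tags, score 159). The Kcnh7 member ended 6 bp from a NanogWT H3K4me1 peak, while the other 4 lay between 2.56 and 8.67 kb from one. Summit sequences of these 4 members, 100 bp either side and read 5′ to 3′ on the plus strand of GRCm38.p6 from RefSeq, follow with every CG dinucleotide in capitals. They held 5, 2, 10 and 21 such dinucleotides.
Pamr1 intron, chr2:102599863-102600063: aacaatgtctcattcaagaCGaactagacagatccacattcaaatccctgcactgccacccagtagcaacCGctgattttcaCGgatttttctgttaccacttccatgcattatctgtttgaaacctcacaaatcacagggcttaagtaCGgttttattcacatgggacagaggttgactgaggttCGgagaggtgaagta
Rab11fip2, intergenic, chr19:60015545-60015745: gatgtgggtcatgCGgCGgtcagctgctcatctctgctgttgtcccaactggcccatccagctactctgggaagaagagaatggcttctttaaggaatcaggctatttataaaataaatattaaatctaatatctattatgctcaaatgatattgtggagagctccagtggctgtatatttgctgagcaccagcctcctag
Hdhd5, intergenic, chr6:120539206-120539406: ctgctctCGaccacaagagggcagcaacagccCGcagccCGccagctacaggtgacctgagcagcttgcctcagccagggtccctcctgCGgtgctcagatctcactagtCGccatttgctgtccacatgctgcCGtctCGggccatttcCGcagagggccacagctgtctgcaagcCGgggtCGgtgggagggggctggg
Gm26848 intron, chr17:6490131-6490331: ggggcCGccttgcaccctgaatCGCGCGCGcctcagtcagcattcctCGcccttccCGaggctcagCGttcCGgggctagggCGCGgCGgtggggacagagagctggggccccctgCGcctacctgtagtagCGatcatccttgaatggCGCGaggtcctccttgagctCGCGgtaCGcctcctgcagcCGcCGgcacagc

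A second set of sequences shows a consensus that was found more often at members than at lost H3K4me1-only regions. CTCF is a zinc finger protein that holds chromatin loops at domain borders, and its 12-base core was matched on either strand within 100 bp of the summit in 63 members. The 5 of these with the highest scores lay in introns of Cd101 (18 tags), Fstl4 (16 tags), Ptprm (16 tags) and Tiam2 (16 tags) and between genes 24.4 kb from the start of Uck2 (14 tags). These 5 were picked after their values had been seen. In their summit sequences, from the same genome, the capitals mark every consensus match of the 16 consensus sequences searched, and the run of 12 capitals is the CTCF core.
Cd101 intron, chr3:100999043-100999243: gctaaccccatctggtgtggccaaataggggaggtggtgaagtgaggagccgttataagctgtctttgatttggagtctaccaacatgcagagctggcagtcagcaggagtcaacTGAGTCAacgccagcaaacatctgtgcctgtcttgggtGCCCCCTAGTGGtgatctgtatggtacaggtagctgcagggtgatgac
Fstl4 intron, chr11:53032401-53032601: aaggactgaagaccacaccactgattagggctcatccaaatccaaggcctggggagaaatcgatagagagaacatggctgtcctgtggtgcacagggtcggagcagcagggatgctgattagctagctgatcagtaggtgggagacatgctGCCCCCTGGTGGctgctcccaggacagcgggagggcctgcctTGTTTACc
Ptprm intron, chr17:66755404-66755604: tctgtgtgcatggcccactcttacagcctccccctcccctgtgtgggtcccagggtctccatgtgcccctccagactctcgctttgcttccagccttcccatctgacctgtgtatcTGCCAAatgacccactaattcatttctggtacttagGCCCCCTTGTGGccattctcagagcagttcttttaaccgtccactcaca
Tiam2 intron, chr17:3509961-3510161: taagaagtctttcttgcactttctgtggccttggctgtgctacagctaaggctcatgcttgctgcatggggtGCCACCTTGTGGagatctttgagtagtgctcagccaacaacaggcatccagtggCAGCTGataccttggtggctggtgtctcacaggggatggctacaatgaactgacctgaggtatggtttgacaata
Uck2, intergenic, chr1:167212324-167212524: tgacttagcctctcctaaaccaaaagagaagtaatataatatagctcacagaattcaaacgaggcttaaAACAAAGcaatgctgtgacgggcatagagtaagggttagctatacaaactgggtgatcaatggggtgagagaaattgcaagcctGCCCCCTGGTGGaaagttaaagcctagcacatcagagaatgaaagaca

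The members were 34.0% (33.3 to 34.8) of the 14986 gained H3K4me1 regions, which made up 17.3% of all merged regions. The corresponding share without another target was 49.9% (49.3 to 50.4) among 30087 lost regions and 14.1% (13.8 to 14.4) among 41500 common regions. For each lost H3K4me1-only region there were 0.340 gained ones (0.329 to 0.351), whereas the ratio was 0.655 (0.639 to 0.672) for regions with another target. The 2 H3K4me1 lists were unequal, with 72242 NanogWT peaks and 57156 NanogBiD peaks, and with both at the length of the shorter the ratio for H3K4me1-only regions was 0.692 (0.670 to 0.715). It moved the other way, to 0.209 and 0.184, when scores of at least 100 or heights of at least 15 tags were required in all lists. The ratio for regions with another target was not recomputed at equal length, so the balance of loss and gain is not compared between the classes. Gained regions that were excluded from the members mostly held FLAG, found at 59.6% of all gained regions, followed by BRG1 at 43.8% and H3K27ac at 32.8%.

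At the edge of the rule, 79 members lay within 100 bp of a FLAG, BRG1 or H3K27ac peak, and 81 gained regions were excluded for an overlap of 100 bp or less. The nearest member, chr15:60231347-60231847 (10 tags, score 59.4), touched a NanogWT FLAG peak without overlap. The excluded region with the smallest overlap, chr10:89731208-89731783 (11 tags, score 57.8), shared 2 bp with a NanogWT H3K27ac peak. At the other extreme, the member farthest from any other target, chr4:78211682-78212369 (14 tags, score 87.9), lay 388 kb away from one and 0.115 kb from a start site of Ptprd, a receptor tyrosine phosphatase of synapses.

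Although free of other targets, members lay in the neighbourhood of them. The median distance from a member to the nearest FLAG, BRG1 or H3K27ac peak of either arm was 6.27 kb, 41.3% (39.96 to 42.66) lay within 5 kb and 97.7% within 50 kb. Only 33 members were more than 100 kb from all of them. The share of the genome within these distances of such peaks was not computed. By list, NanogBiD peaks were nearer than NanogWT peaks of the same target, with medians of 8.39 and 11.1 kb for FLAG, 11.9 and 22.4 kb for BRG1 and 15.7 and 21.1 kb for H3K27ac. The same order held around lost H3K4me1-only regions, with 8.56 and 10.4 kb for FLAG, 11.7 and 20.5 kb for BRG1 and 14.7 and 18.03 kb for H3K27ac, and the NanogBiD lists of these targets were longer. Around lost H3K4me1-only regions the median distance to any other target was 6.19 kb, close to that of members.

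A NanogWT H3K4me1 peak lay within 5 kb of 31.9% of members (30.7 to 33.2), with a median distance of 8.34 kb, while 26.3% of the genome lies within 5 kb of such a peak. In the mirror class the share within 5 kb of a NanogBiD peak was 24.0% (23.3 to 24.7), beside 21.6% of the genome. These shares depended on the lists: when each list was limited to its top 20000 peaks by score, 5.91% of members lay within 5 kb of such a peak, and with summit windows in place of peaks 59.2%. The genome share was computed for the full lists only. Taller members were closer to it. The share of members within 5 kb of a NanogWT H3K4me1 peak was 22.9% at 8 to 10 tags, 29.8% at 11 to 12, 37.5% at 13 to 14 and 55.8% (51.59 to 60.02) at 15 or more. Distances to other targets ran the same way, with 31.5%, 39.1%, 47.6% and 66.2% of members within 5 kb. The merged H3K4me1 region next to a member was a lost H3K4me1-only region in 17.7% of cases and another member in 6.19%. These classes made up 17.3% and 5.89% of all merged regions. Common H3K4me1-only regions were the neighbour in 7.92% (7.21 to 8.69), above their 6.75% of all merged regions. Apart from this class, the neighbours of members were made up much like the regions as a whole.

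Most members lay outside promoters. Summits fell in introns in 42.9% (41.6 to 44.3), between genes in 37.4% (36.1 to 38.7), within 2 kb of a start site in 15.6% (14.6 to 16.6) and in exons in 4.10% (3.59 to 4.68). Of the genome, 36.7% is intronic, 49.5% intergenic and 11.2% promoter by the same annotation. The promoter share of lost H3K4me1-only regions was 13.5% (12.94 to 14.03), and that of common H3K4me1-only regions was 32.4% (31.2 to 33.6). Among members the promoter share was 12.7% at 8 to 10 tags and 24.5% (21.1 to 28.4) at 15 or more. The share over all members depended on the setting, being 10.5% with start sites of protein-coding genes alone and between 25.5% and 27.7% with higher cut-offs of score or height, shorter lists or summit windows. Of all members, 35.4% lay over 50 kb from any protein-coding start.

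**Figure D2:**
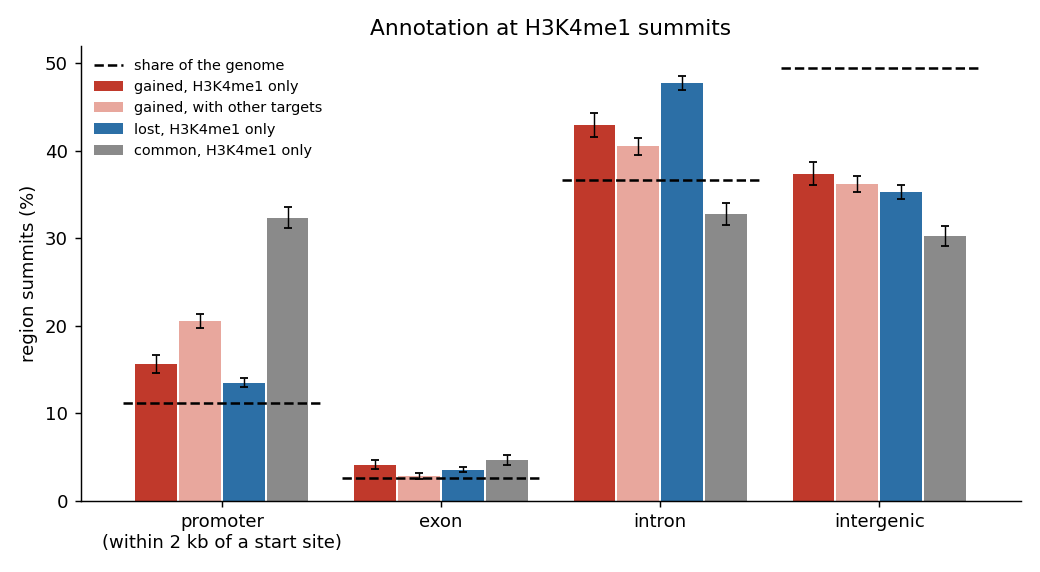
Share of H3K4me1 summits (vertical axis, %) in promoters, exons, introns and intergenic sequence for 4 classes of merged regions, with Wilson 95% intervals and the share of the genome as dashed lines. Members have a promoter share of 15.6%, between the lost (13.5%) and common (32.4%) H3K4me1-only regions.

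Members were richer in G and C than their flanks, at 49.9% within 100 bp of the summit against 44.3% at a distance of 1 kb and 41.8% in the genome. Their summits were poor in repeats, with 12.9% of bases masked beside 34.3% of the genome. Few were CpG islands. Windows of 250 bp either side with at least 50% GC and an observed over expected CpG ratio of at least 0.6, called CpG-rich here, were found at 152 members or 2.98% (2.55 to 3.48), of which 101 lay at promoters. The share was 1.20% (1.04 to 1.39) for lost H3K4me1-only regions and 15.4% (14.5 to 16.4) for common ones. It was 7.32% (6.82 to 7.85) for gained regions with another target and 0.720% for genome windows of the same length. At promoters, 12.7% of members were CpG-rich (10.6 to 15.2), against 5.93% (4.99 to 7.05) of lost H3K4me1-only regions. Among regions of 15 tags or more, 8.87% (6.73 to 11.6) of members and 2.30% (1.87 to 2.82) of lost regions were CpG-rich. Heights of lost regions come from the NanogWT library and are not scaled to that of members, so equal tag numbers do not match the classes. Over all heights, members had the higher share on 18 of 20 chromosomes.

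The tallest CpG-rich members at promoters belonged to genes of several kinds. They included Tfap2a (22 tags), a transcription factor of neural crest and surface ectoderm, Ntrk3 (20 tags), the receptor of neurotrophin 3, Hey1 (20 tags), a NOTCH target gene, Nr2f6 (19 tags), an orphan nuclear receptor, and Cbfa2t3 (19 tags), a transcriptional corepressor. These genes were named after their values had been seen. Scores at Hey1, Nr2f6 and Cbfa2t3 were 55.3, 53.4 and 50.6, near the lower limit of the list, and 68.1 at Ntrk3. A NanogWT H3K4me1 peak lay 0.869 kb from the Ntrk3 member, 1.28 kb from Hey1, 1.43 kb from Nr2f6 and 0.100 kb from Cbfa2t3. The Tfap2a member, chr13:40728077-40728919, lay 9.78 kb downstream of the gene start but 0.347 kb from the nearest annotated transcript start, 1.42 kb from a NanogBiD FLAG peak and 4.39 kb from a NanogWT H3K4me1 peak. Its score was 55.3 despite its height, near the lower limit of the list. The summit sequence follows with its 12 CG dinucleotides in capitals.
Tfap2a, chr13:40728497-40728697: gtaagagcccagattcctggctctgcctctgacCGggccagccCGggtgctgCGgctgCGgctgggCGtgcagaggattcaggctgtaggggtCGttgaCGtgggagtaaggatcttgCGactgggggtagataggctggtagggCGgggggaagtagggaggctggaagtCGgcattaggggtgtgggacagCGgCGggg

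CTCF core matches were more frequent at members than at lost H3K4me1-only regions. A match lay within 100 bp of 1.24% of member summits (0.967 to 1.58), against 0.0588% (3 of 5101) at a distance of 1 kb, 0.0494% of genome windows of the same length and 0.326% of 32851 RefSeq promoter windows, which are longer at 300 bp. Lost H3K4me1-only regions held it in 0.426% (0.334 to 0.544), gained regions with another target in 0.648% (0.508 to 0.826) and common H3K4me1-only regions in 1.06% (0.828 to 1.36). The member share was 0.608% with motif windows of 50 bp either side, 0.717% with summit windows in place of peaks and 2.50% with heights of at least 15 tags in all lists. Members exceeded lost regions by 0.81 percentage points (0.52 to 1.163). Matches were concentrated within 200 bp of the summit: there were 36 in the 100 bp before it and 28 in the 100 bp after it, and 4 and 2 matches in the bins from 200 to 300 bp on the left and right. The 63 members with a match lay on 19 chromosomes, 26 in introns, 23 between genes, 10 at promoters and 4 in exons, and their median height was 13 tags against 11 for the rest.

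The CTCF share of members increased with summit height but not with peak score. At 8 to 10 tags it was 0.709% (0.396 to 1.26) in members and 0.435% (0.221 to 0.856) in lost H3K4me1-only regions, where the intervals overlap. At 11 to 12 tags the values were 0.900% and 0.290%, at 13 to 14 tags 1.67% and 0.433%, and at 15 tags or more 3.21% (2.01 to 5.08) and 0.5999% (0.400 to 0.899). By score, the member share was 1.32% from 50 to 60, 1.13% from 60 to 75 and 1.19% at 75 or more, against 0.541%, 0.540% and 0.223% in lost regions. Outside CpG-rich windows the shares were 1.23% in members and 0.432% in lost regions, and over all windows members were above lost regions on 18 of 20 chromosomes. Common H3K4me1-only regions outside CpG-rich windows had the same share as members, 1.23% (0.961 to 1.58). The NanogBiD H3K4me1 list as a whole also held more CTCF matches than the NanogWT list, 0.894% (0.820 to 0.975) of its regions against 0.697% (0.639 to 0.761), and more CpG-rich regions, 16.0% against 12.4%. The part of such list-wide differences in the member values was not tested, and a match does not show that CTCF was bound.

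**Figure D3:**
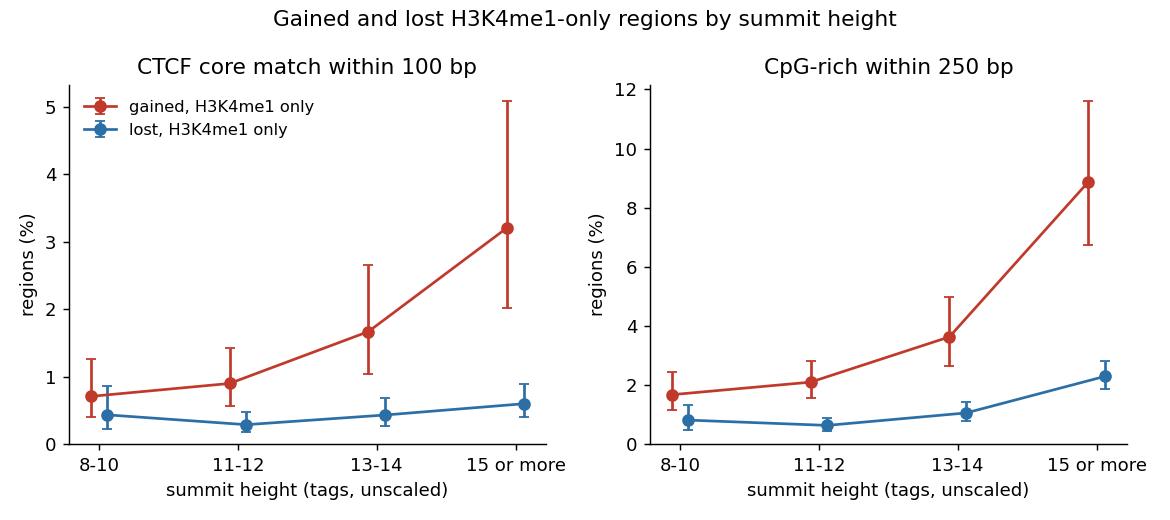
Share of gained (red) and lost (blue) H3K4me1-only regions (vertical axes, %) with a CTCF core match within 100 bp of the summit (left) and with a CpG-rich window (right), by summit height (horizontal axes, tags, unscaled), with Wilson 95% intervals. At 15 tags or more the CTCF shares are 3.21% and 0.5999% and the CpG-rich shares 8.87% and 2.30%.

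AP-1, the FOS and JUN dimers that occupy many fibroblast enhancers, binds TGACTCA. This consensus lay at 6.65% of member summits (5.99 to 7.36), against 3.61% at 1 kb away, 3.12% of genome windows and 5.20% of the promoter windows. The share was 8.12% (7.69 to 8.56) in lost H3K4me1-only regions, 7.08% (6.45 to 7.77) in common ones and 11.1% (10.5 to 11.7) in gained regions with another target. Members thus had fewer AP-1 matches than gained regions that carried NANOG, BRG1 or H3K27ac, and 1.47 percentage points fewer than lost ones (-2.26 to -0.64). This last difference was -0.24 points (-0.82 to 0.39) when windows of 50 bp either side were searched, and members were lower on 14 and higher on 6 of 20 chromosomes. Unlike the CTCF core, AP-1 did not increase with member height, being 5.99%, 7.20%, 7.07% and 5.66% from the lowest to the highest group.

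Of the consensus sequences of the delivered factors, the octamer was more frequent at member summits than in their flanks, and the NANOG core was not. The octamer ATGCAAAT, bound by OCT4, was found at 2.12% (1.76 to 2.55) of member summits, 1.14% at 1 kb away and 1.74% of both genome and promoter windows. Gained regions with another target held it in 3.09% (2.76 to 3.45) and lost H3K4me1-only regions in 1.46% (1.28 to 1.66). Over whole H3K4me1 lists it lay at 2.35% (2.23 to 2.48) of NanogBiD regions and 1.93% (1.84 to 2.04) of NanogWT regions. Members were above lost regions on 13 of 20 chromosomes and below them on 7. A NANOG core, TAATGG, lay at 7.12% (6.44 to 7.85) of member summits, below the 7.98% at 1 kb away, 8.69% of genome windows and 7.73% of promoter windows, whereas it lay at 10.97% (10.4 to 11.6) of summits in gained regions with another target. The NANOG core did not distinguish member summits from their surroundings. It was less frequent at lost H3K4me1-only summits, at 5.92% (5.55 to 6.31), with 8.14% at 1 kb away. Common H3K4me1-only summits held it in 5.25% (4.71 to 5.85), with 6.84% at 1 kb away.

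Of the other sequences searched, the GC-rich KLF and SP box GGGCGG lay at 7.18% of member summits (6.50 to 7.92), 3.23% at 1 kb away and 1.97% of genome windows, but at 35.7% of promoter windows. It was found at 4.02% (3.72 to 4.34) of lost and 14.9% of common H3K4me1-only regions. The value in members exceeded that in lost regions on all 20 chromosomes. Over whole lists the box was also more frequent among NanogBiD than NanogWT H3K4me1 regions, 15.5% against 12.4%. The E-box CAGCTG, a site of bHLH factors, lay at 15.5% of member summits against 8.80% at 1 kb away and 16.3% of promoter windows. The ETS site CCGGAAG lay at 1.41% of them against 0.725%, with 8.86% of promoter windows. TEAD sites, GGAATG, were at 12.3% against 9.92%, with 14.7% of promoter windows. GATA sites, AGATAA, ran the other way at 7.06% against 11.8% and 11.2% of promoter windows. Lost H3K4me1-only regions had the same directions: E-box 16.1% against 8.78%, ETS 0.880% against 0.693%, TEAD 13.5% against 10.4% and GATA 7.37% against 11.7%. Common H3K4me1-only regions did too, so these directions were not particular to members. The SOX sites AACAATG and AACAAAG lay at 2.88% and 5.00% of member summits and at 3.84% and 5.02% of windows 1 kb away. None of the 16 consensus sequences matched at 1708 members, 33.5%.

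**Figure D4:**
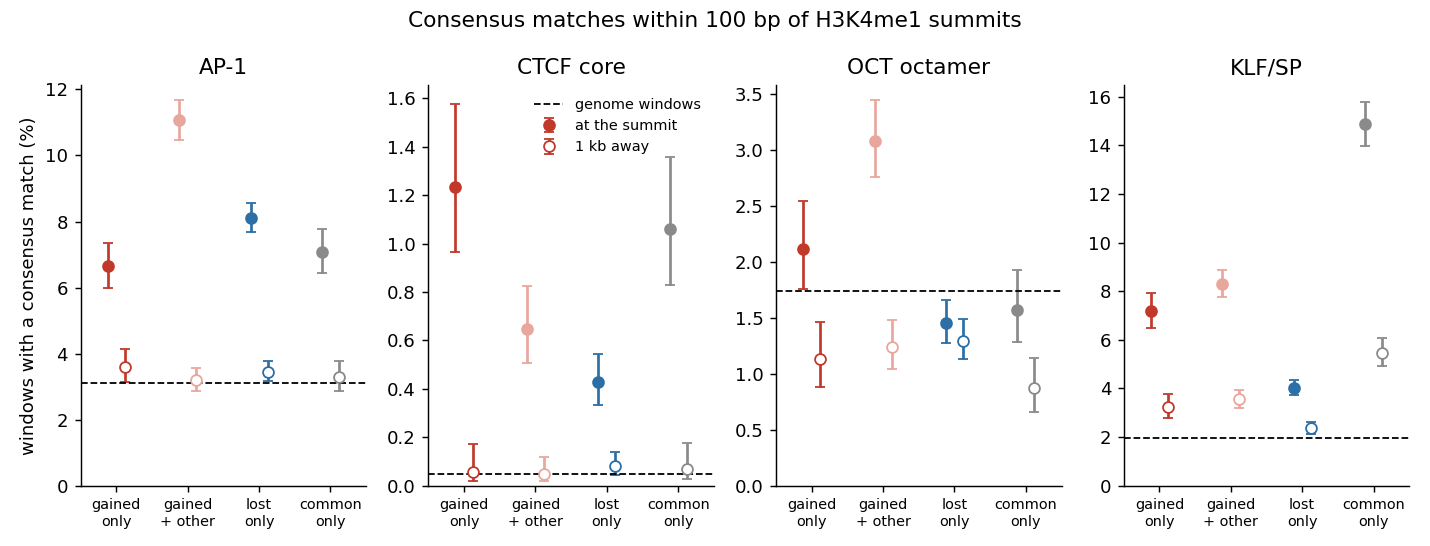
Share of windows (vertical axes, %) with a consensus match within 100 bp of the H3K4me1 summit (filled) and of a position 1 kb away (open) in 4 classes of regions, with Wilson 95% intervals and the genome share as a dashed line. For the CTCF core the member value is 1.24% at the summit and 0.0588% at 1 kb away, and for AP-1 it is 6.65% and 3.61%.

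Members near genes were counted in gene bodies with 20 kb either side. Of 21755 protein-coding genes, 17.7% had a member and 37.5% had a lost H3K4me1-only region. Regulators of germ layers and lineages stood above this background in both directions: 11 of 25 genes (44%) had members and 15 of 25 (60%) had lost regions. Per length they had 7.11 members and 16.4 lost regions per Mb, against 2.51 and 7.38 per Mb over all genes. With scores of at least 100 in all lists 2 of these genes had a member, with the 20000 highest-scoring peaks 6 and with summit windows 20, and the share over all genes was not computed at those settings. Genes of this list were short, and no test of the list was made. The 13 members were spread over Gata3, Gata4 and Gata6, zinc finger factors of endoderm, heart and trophoblast, Foxa1 and Foxa2, forkhead factors of endoderm, Eomes, a T-box factor of mesendoderm and trophoblast, Tfap2a, Cdx2, the caudal factor of trophectoderm, Hand1, a bHLH factor of heart and trophoblast, Lhx1, a LIM homeobox factor of the gastrula organiser, and Meis1, a cofactor of HOX proteins. Their heights ran from 9 to 22 tags with a median of 13, and 5 of the 13 were CpG-rich.

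Lhx1 and Tfap2a had 2 members each and no lost H3K4me1-only region. At Lhx1 the members lay 5.73 kb downstream of the start in an exon (13 tags, score 62.3) and 16.1 kb upstream (12 tags, score 54.03), and at Tfap2a the second lay 10.7 kb upstream (11 tags, score 87.3). The Cdx2 member was in an intron 2.59 kb from the start (17 tags, score 57.4). Eomes had a member 9.56 kb upstream with the highest score of this list (14 tags, score 117) and also 3 lost regions.

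Pluripotency regulators had members at 7 of 28 genes (25%) and lost regions at 13 (46.4%), or 4.27 and 8.54 regions per Mb. These members lay at Nanog, the nuclear receptor genes Esrrb and Nr5a2, Klf2, a naive-state factor, Dppa3, a germ cell and oocyte protein, Otx2, a factor of primed pluripotency, and Tet2, a 5-methylcytosine dioxygenase. Heights were 10 to 15 tags. Nr5a2 had 2 members, in an intron 35.3 kb into the gene and 2.04 kb downstream of its start (12 tags each), and 2 lost regions. The Nanog member, chr6:122719953-122720384 (11 tags, score 56.7), was intergenic, 12.7 kb downstream of the start, and no H3K4me1-only region was lost there. At Esrrb the member, chr12:86379014-86380370 (13 tags, score 74.7), lay in an intron 18.6 kb into the gene, which also had 2 lost regions. Neither held a match to the octamer, the NANOG core or AP-1 at its summit, as the sequences show, with all consensus matches in capitals.
Nanog, chr6:122720138-122720338: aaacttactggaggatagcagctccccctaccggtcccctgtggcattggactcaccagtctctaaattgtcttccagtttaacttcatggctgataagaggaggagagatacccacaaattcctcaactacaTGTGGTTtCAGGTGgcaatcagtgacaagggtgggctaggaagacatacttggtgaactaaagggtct
Esrrb, chr12:86379615-86379815: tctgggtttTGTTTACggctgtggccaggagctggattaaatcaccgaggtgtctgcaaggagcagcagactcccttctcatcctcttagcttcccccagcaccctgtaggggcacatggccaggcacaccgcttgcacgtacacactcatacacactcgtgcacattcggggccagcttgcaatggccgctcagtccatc

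The remaining lists had between 1.27 and 3.29 members per Mb, on either side of the 2.51 per Mb over all genes. Fibroblast and mesenchymal genes had members at 7 of 28 (Snai2, Zeb1, Zeb2, Thy1, Dab2, Fn1 and, with 2, Runx2), 2.39 per Mb. Lost regions lay at 13 of them. Both counts of genes equalled those of the pluripotency list, whose genes were shorter, with a median of 13.9 kb against 42.9 kb. Epithelial genes had them at 4 of 22, with 2 at Esrp2, a splicing regulator of epithelia, where the taller stood 1.14 kb from the start (18 tags, score 88.0). AP-1 genes had them at 2 of 15, with 2 at Maff, and Sox genes at 5 of 19, with 3 at Sox5 and 2 at Sox13. H3K4 methylases and demethylases had members at 5 of 19 and lost regions at 12 of 19. Of 14 genes picked from those the study named, Esrrb and Dab2 had members. Nanog and Nr5a2, also named there, were counted with the pluripotency regulators only. Long synaptic and adhesion genes had members at 20 of 25 but only 1.27 per Mb, below the value over all genes. The share of genes with a member in the body grew with gene length, from 1.94% of those under 20 kb to 59.6% of those over 300 kb, while the number per Mb stayed between 2.24 and 2.83.

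**Figure D5:**
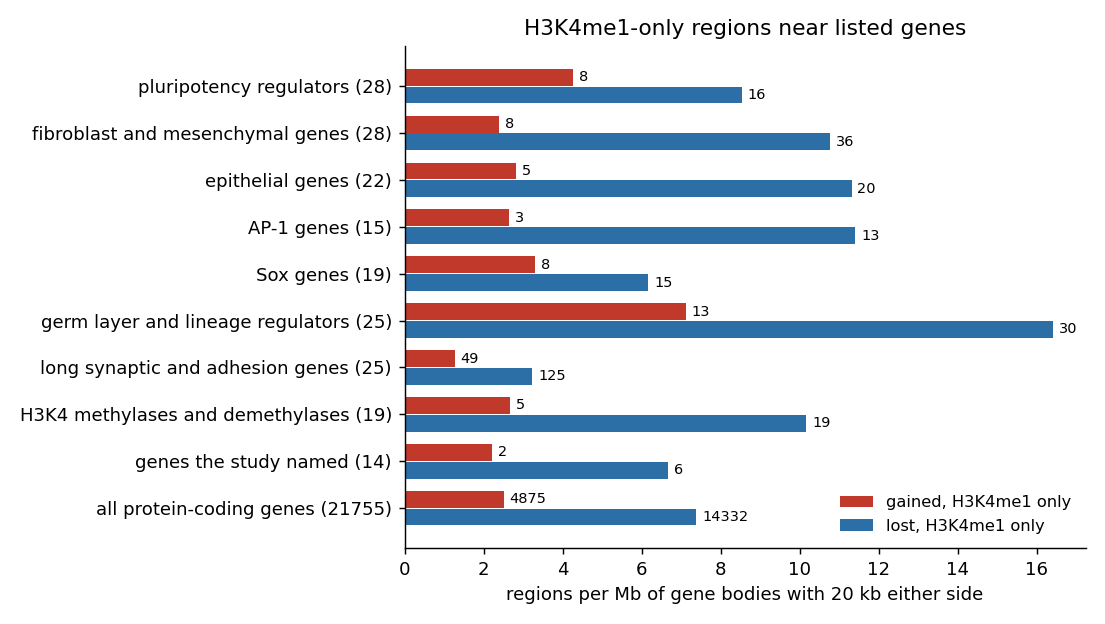
H3K4me1-only regions per Mb (horizontal axis) of gene bodies with 20 kb either side, gained (red) and lost (blue), for each gene list with the number of genes in brackets and the number of regions beside each bar. Germ layer and lineage regulators have 7.11 gained and 16.4 lost regions per Mb, against 2.51 and 7.38 over all protein-coding genes.

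Genes with most members in their body were long. Auts2, a neurodevelopmental gene, had 9 members beside 13 lost H3K4me1-only regions, and Ptprg, a receptor tyrosine phosphatase, 9 beside 12. The gene models Gm20388 and Fgfr2 held 23 and 9 members but span 4435 and 2961 kb in this annotation and overlap other genes. Per 100 kb, among genes with at least 5 members, Babam2 had most (1.55), followed by Ccdc148 (1.47), Ttc28 (1.46), Ksr2 (1.39) and Ptprg (1.31). Ccdc148, a coiled-coil gene, and Ksr2, a scaffold of the RAS to ERK cascade, each had 5 members beside 1 lost region, while Babam2 and Ttc28 each had 6 beside 6. These genes were chosen for their density of members, so nothing is read from the balance of gain and loss there.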

How the data were processed

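H3K4me1, H3K27ac, FLAG and BRG1 CUT&Tag peaks of 2 arms were compared. Per the methods and labels, the authors trimmed reads (Trim Galore 0.6.4), aligned them to mm10 (Bowtie2 2.4.5), removed repetitive, poorly mapped and mitochondrial reads (SAMtools 1.16.1), merged replicates and called peaks with MACS 1.4.2, keeping 1 tag per position, with no control named. Labels and methods differ on kit and cell number. The deposited peak score is the significance value of MACS, at least 50. The deposited summit signal counts the tags piled up there, not scaled, and depth is unknown.

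Peaks were joined to summits by name, merged and classed in Python 3.11.15. Start sites and genes were those of GENCODE M21, and sequence that of GRCm38.p6 from RefSeq (chromosomes 1 to 19 and X). Consensus sequences were matched on both strands, with overlaps between them allowed. Intervals are Wilson 95% intervals, and no test was made. Classing was tested on 6000 simulated regions, of which 100% were recovered.

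Members, lists and consensus sequences were chosen with earlier results of these data known. The named regions were the 5 with the highest scores, the nearest and farthest from another target and the excluded region with the smallest overlap. Named genes were the 5 with most members, of which 1 is not reported here, the 5 with most per 100 kb among those with at least 5, and listed genes with 2 or more, beside others marked as chosen after seeing values. Kdm5d of the H3K4 list was not found on the chromosomes used. Sequences overlapping annotated untranslated regions were not printed.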

Additional observations from a re-analysis of the deposited data

How the results depend on the processing

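No paired analysis was possible because the deposited lists carry no replicate numbers, every list being 1 merged library. Of the recomputed results, only the differences between gained and lost H3K4me1-only regions could change sign, and none of them did. Counts, shares and the ratio of gained to lost regions cannot be negative, so for them only the size could move. The ratio for regions with other targets, the octamer, NANOG core and KLF and SP shares, and the background shares of genome and genes were not recomputed. The limits are those of peak calling in 1 library per group: unknown depth, and scores of members close to the cut-off of the caller. Restricting all lists to scores of at least 100 gave 1387 members, 28.2% of gained regions, a gained to lost ratio of 0.209, 25.5% at promoters and 9.59% within 5 kb of a NanogWT H3K4me1 peak. The 20000 highest-scoring peaks of each list gave 2912, 38.5%, 0.724, 26.0% and 5.91%, with 8.38% holding AP-1. Heights of at least 15 tags gave 2082, 36.4%, 0.184, 27.6% and 26.6%, with 8.93% for AP-1. In these 3 settings the lists of the other targets were shortened too. Windows of 100 bp either side of summits gave 12413, 43.8%, 0.477, 27.7%, 59.2% and 5.63%. H3K4me1 lists of equal length gave 31.9% of gained regions, 0.692, 16.8% and 26.6%. With no other target within 1 kb, 29.8% of gained regions were members, 14.5% of them at promoters and 28.4% near NanogWT H3K4me1. Other targets of the NanogBiD arm alone gave 38.6% and a ratio of 0.299. Merging across 500 bp gave 14.5% at promoters and 27.4% near NanogWT H3K4me1. Promoters of 1 kb gave 10.2%, protein-coding starts 10.5%, a distance of 1 kb 9.86% and motif windows of 50 bp 3.67%. Alternatives for the comparisons of gained with lost H3K4me1-only regions were added after seeing the data. The CTCF core difference stayed above 0 in 10 of 10, from 0.36 to 1.76 percentage points, and that for CpG-rich windows in 9 of 9, from 1.61 to 6.61. The AP-1 difference stayed below 0, from -3.00 to -0.24, with an interval excluding 0 in 8 of 10. Lineage regulators with a member numbered 2 to 20 over 9 alternatives.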

Other observations

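On autosomes members numbered from 1.66 to 2.61 per Mb, on chromosomes 3 and 17. The X chromosome had 57 members beside 130 lost H3K4me1-only regions, or 0.349 members per Mb, and 0.795 lost regions per Mb. Merged regions with a NanogBiD peak were few on the X chromosome, 493, and members made up 11.6% of them (9.03 to 14.7), against 7.56% to 10.2% on the autosomes. Its gained to lost ratio, 0.438, was the highest of the 20 chromosomes, the others lying between 0.290 and 0.413. The embryos of origin were of either sex and the make-up of each library is not known here.

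Windows of 1 Mb with any H3K4me1 region held 2 members at the median, and 5 windows held 10 or more. The window from 44 to 45 Mb of chromosome 19, with the stearoyl-CoA desaturase genes Scd1 to Scd4, Wnt8b and Pax2, held 12 members and 7 lost H3K4me1-only regions. The windows at 86 to 87 Mb of chromosome 10, with Timp3 and Syn3, and at 79 to 80 Mb of chromosome 15, with Sox10 and Maff, held 10 members each, beside 8 and 9 lost regions. These windows were listed for their number of members.

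The tallest members, at 22 or 23 tags, were named after their values had been seen. They lay in an intron of Nrg1, a ligand of ERBB receptors (23 tags), at the promoter of Polr3gl, a subunit of RNA polymerase III (23 tags), in introns of Khk, the fructose-phosphorylating ketohexokinase, and Ctdsp2 (22 tags each), 52.3 kb from the homeobox gene Dlx2, 7.10 kb from Rrp1, and at Tfap2a (22 tags each). Each lay between 1.42 and 5.01 kb from another target.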
